A study of Mus musculus with 18 samples.

Results

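In 155 of 10602 wells from wild-type mouse hearts, endothelial UMIs outnumbered fibroblast and macrophage UMIs and at least 3 of 5 endocardial-type marker genes were detected. The wells were chosen by their own RNA. For each well with at least 500 genes, UMIs (distinct tagged molecules) were summed over an endothelial set E (Pecam1, Kdr, Egfl7, Esam, Cdh5, Npr3 and Plvap), a fibroblast set F (Col1a1, Col3a1, Col1a2, Dcn, Pdgfra and Lum) and a macrophage set M (C1qa, C1qb, C1qc, Lyz2, Tyrobp and Fcer1g). E was the largest sum and at least 0.2% of the non-mitochondrial gene UMIs in 1947 wells, and 155 of these, called members here, held UMIs of 3 or more of Npr3, Cytl1, Tmem100, Plvap and Hmcn1. They were described against the 1134 E-largest wells that held none of the 5, called none wells. A further 529 wells held 1 marker and 129 held 2, and these entered neither side.

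The endocardium is the sheet of endothelial cells that lines the chambers of the heart and covers its trabeculae and valves. It signals to the underlying myocardium, is a source of coronary vessels and valve mesenchyme before birth, and is in contact with chamber blood, whereas the capillary endothelium of the heart wall supplies fatty acids and oxygen to cardiomyocytes (CMs). Npr3 encodes the clearance receptor for natriuretic peptides, Cytl1 a small secreted protein, Tmem100 a membrane protein downstream of BMP signalling in endothelium, Plvap the protein of endothelial diaphragms, and Hmcn1 the matrix protein hemicentin-1. In the mm10 build Npr3 lies at chr15:11839896-11907287 on the minus strand, Cytl1 at chr5:37735519-37739820 on the plus strand, Tmem100 at chr11:90030348-90036508 on the plus strand, Plvap at chr8:71497765-71511752 on the minus strand and Hmcn1 at chr1:150562524-150993435 on the minus strand, and all 5 are protein-coding genes.

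All hearts came from the strain Myh6/Esr1-Tomato, in which tamoxifen, given to the mothers after birth, switches on a TDtomato reporter in CMs, so that endothelial cells carry the alleles without the label. The 9 chips used here hold wild-type hearts at P4 (2 chips), P7 (2 chips), P14 (2 chips) and P28 (3 chips), and 3 further P28 chips were loaded with CMs and left out. For P4 and P7, pieces of ventricle were digested with a kit, whereas P14 and P28 hearts were digested by Langendorff perfusion, so age and digestion cannot be told apart. CMs and non-CMs were then separated by centrifugation. Another 6 chips hold P28 hearts injected with lentivirus that carries either a hairpin against Jun (shJun) or a non-targeting one (shNT), and they were used only as hearts that the rule did not draw on. From the well reports, 11 wild-type animals were counted on the 9 chips. This takes a name such as M1 on both chips of a P4 or P7 pair to be the same animal and the P28 B chip, whose report gives only 1 type, to be 1 animal, neither of which is stated. Because wells of 1 animal share a heart, wells were summed per animal, and the animal was the replicate.

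The 9 chips held 12328844 to 98184310 UMIs each. Members held a median of 13755 UMIs and 2007 genes per well, against 8508 UMIs and 1280 genes in none wells, so the gate favoured deeper wells. The 2 kinds of wells had similar E shares, with a median of 0.431% in members (0.2005% to 1.25%) and 0.407% in none wells (0.2% to 3.1%). The members nearest the E floor had 0.2005%, 0.2027% and 0.2044%, and the E-largest wells with 3 markers that just missed it had 0.191%, 0.19% and 0.185%. There were 34 such wells below the floor. Chips reused well barcodes (117 to 448 in common for any pair of chips), and 2 member wells carried a barcode that a member on another chip also carried.

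The markers that chose the members were far more frequent in them than in wells of other classes (plotted as detection of the 5 genes by age). Hmcn1 was detected in 96.1% of members and Npr3 in 94.8%, followed by Plvap in 72.9%, Tmem100 in 56.8% and Cytl1 in 51.0%. In the 5248 F-largest wells (median 10694 UMIs) the shares were 24.6% for Hmcn1, 6.48% for Npr3, 5.34% for Plvap, 10.8% for Tmem100 and 6.55% for Cytl1. In the 1986 M-largest wells (median 6884 UMIs) they lay between 3.98% for Plvap and 10.3% for Cytl1. The same gate of 3 markers passed 7.96% of E-largest wells (95% exact binomial interval, 6.8% to 9.25%), 2.23% of F-largest wells and 1.06% of M-largest wells, and these intervals cover counting error only. The markers are a description and were not tested.

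**Figure D1:**
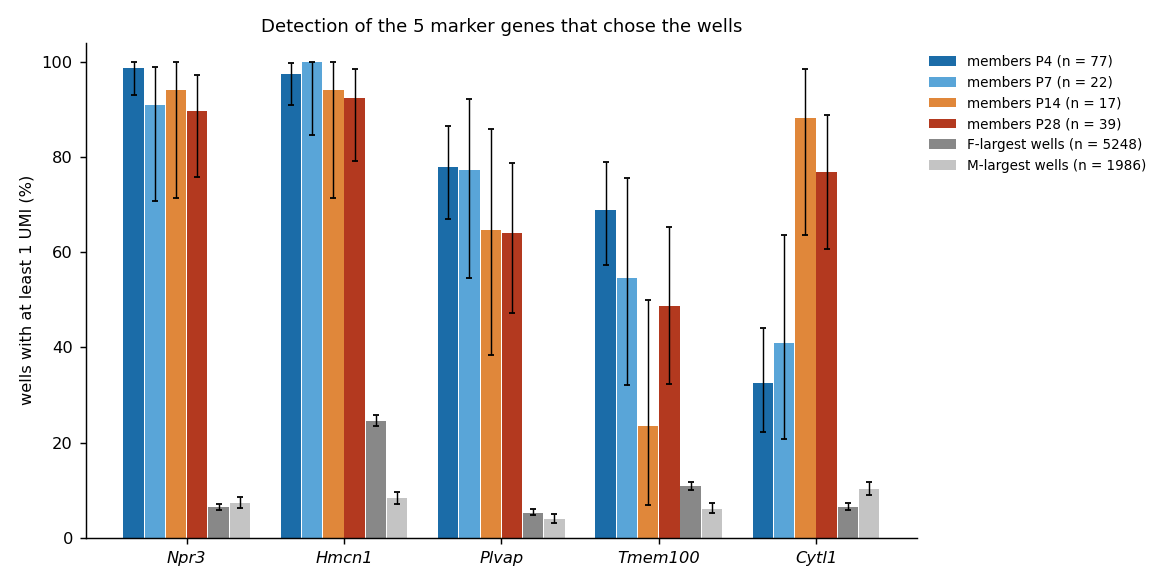
Share of wells with at least 1 UMI of each marker gene (y axis, percent) in members of each age and, for background, in the F-largest and M-largest wells of the same chips; bars are the share and error lines the 95% exact binomial interval. Npr3 and Hmcn1 were detected in 89.7% or more of members at each age, and Cytl1 in 32.5% of P4 members and 76.9% of P28 members.

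The members were not uniform in these genes. The commonest combination was Npr3 with Tmem100, Plvap and Hmcn1 (33 wells), then Npr3 with Cytl1, Plvap and Hmcn1 (26 wells), and 21 wells held all 5. In number of markers, 65 members held 3, 69 held 4 and 21 held 5. Cytl1 was detected in 25 of 77 members at P4 and 9 of 22 at P7, and in 15 of 17 at P14 and 30 of 39 at P28. Tmem100 ran the other way in its extremes, with 53 of 77 at P4, 12 of 22 at P7, 4 of 17 at P14 and 19 of 39 at P28. In each of the 4 pup hearts Cytl1 was detected in 30.6% to 46.2% of members, and in each of the 7 older hearts in 69.2% to 100%, so the ages did not overlap, but the wells were chosen on these genes and the difference was not tested.

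Members came from all 11 animals, unevenly. The P4 hearts gave 28 (M1) and 49 (M2), the P7 hearts 9 (M1) and 13 (M2), the P14 hearts 16 (m1) and 1 (m2), and the P28 hearts 8 and 9 (A M1 and A M2), 13 (B), 2 and 7 (C M1 and C M2). On the P14 m1 chip 10 of the 16 members lay in wells of type CM and 6 in wells of type NCM. The 5 animals with at least 10 members, P4 M1, P4 M2, P7 M2, P14 m1 and P28 B, carried the tests, and their values are given below in that order. The level is CPM, UMI counts scaled to a library of 1000000 UMIs of the tested genes, with TMM factors, and it compares 1 gene between groups, not genes with each other.

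Members differed from none wells of the same hearts in 108 of 11177 genes (0.966%), with 66 higher (0.59%) and 42 lower (0.376%), by edgeR's quasi-likelihood test with the animal as a block and Benjamini-Hochberg adjustment to 0.05. The median log2 difference over all genes was -0.43 on this scale and 32.9% of genes were positive, so a gene at -0.43 sits at the middle of the genes. With DESeq2 and its size factors 467 genes passed and the split turned to 218 higher and 249 lower, with 102 of the 108 among them in the same direction. Without P4 M2, P7 M2 or P14 m1 the number fell to 51, 54 and 56, and 51, 52 and 55 of these were among the 108. Genes of the rule were left out of the test and of the library sizes. Fewer UMIs of a gene per cell and fewer cells with the gene cannot be told apart in these sums.

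The genes named by the rule as higher in members include secreted and matrix-bound proteins and regulators of growth. Mgp, matrix Gla protein, a BMP-binding inhibitor of calcification, stood at 1691, 1898, 1317, 9695 and 6277 CPM in members and at 203, 78.0, 105, 179 and 565 CPM in none wells. It was higher in members of all 5 hearts, the groups did not overlap, and the log2 difference was 4.08 ± 0.35 (SE; adjusted p = 8.42e-06). Its highest member levels were those of the 2 older hearts. Cdh11, a cadherin of mesenchymal and valve cells, was even among the hearts, at 217, 331, 318, 243 and 349.9 CPM in members, and was near the detection limit in none wells, at 2.98, 2.93, 4.45, 5.45 and 3.74 CPM (log2 difference 6.20 ± 0.55, adjusted p = 8.42e-06).

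Igf2, a fetal growth factor of the insulin family, was detected in 96.6% of members and 60.2% of none wells of the tested hearts. Its level was 5633, 3719.8, 1897, 5496 and 2566 CPM in members and 726, 564, 470.0, 453 and 151 CPM in none wells, a log2 difference of 3.07 ± 0.29 (adjusted p = 1.07e-05). H19, the imprinted noncoding RNA that is transcribed beside Igf2 on chromosome 7, reached 8289, 7074, 4999.7, 7990.4 and 2868 CPM in members and 1014, 827, 821, 83.5 and 62.6 CPM in none wells (log2 difference 4.07 ± 0.49, adjusted p = 0.00016). In neither gene did members and none wells overlap. Apoe, a lipoprotein of lipid transport, was found in every member of the tested hearts, at 5918, 8439.8, 3817, 6158 and 3017 CPM against 682, 290.3, 191, 624 and 1372 CPM (log2 difference 3.39 ± 0.41, adjusted p = 0.00016). Apoe stood at 20446 CPM in the M-largest wells of the same hearts, above every member value. The M sum in members (49.9 to 1134 CPM) and none wells (45.8 to 1235 CPM) overlapped.

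Other genes named by the rule were the tight-junction gene Cgnl1 (3.62 on the log2 scale), the prohormone-processing carboxypeptidase Cpe (3.69), the IGF-binding protein Igfbp5 (4.30), the aspartyl protease Bace2 (5.88), the lysosomal protease Ctsh (5.39) and the choline phosphodiesterase Enpp6 (6.47). Each was higher in members of all 5 hearts with no overlap. Cgnl1 was even among the hearts, at 1119, 1183, 1676, 1025 and 1214 CPM in members and 161, 130.2, 106, 87.2 and 48.6 CPM in none wells. Enpp6 was found in 28.6% of members and 1.17% of none wells.

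Some genes known from endocardium that the gate did not use were higher in members. Of 13 genes in that list 11 were tested and 6 passed: Cdh11, Cgnl1, Tmem108, Vwf, Smoc1 and Nrg1. All 11 were positive, Nfatc1 barely so, with a median log2 difference of 4.38. A gene low in none wells could pass the filter on low counts through members alone, as Nrg1 did. The count of positive genes was therefore partly set by the filter. Vwf, the platelet-tethering von Willebrand factor, stood at 894, 158, 258, 1679 and 1827 CPM in members and 76.0, 69.2, 15.0, 24.5 and 14.9 CPM in none wells (log2 difference 4.38 ± 0.68, adjusted p = 0.00241), lowest in P4 M2 and highest in the older hearts. Tmem108 was at 66.2, 112, 26.8, 265 and 191 CPM against 0.745, 0.586, 0.278, 0.908 and 2.8 CPM and Smoc1, a secreted calcium-binding BMP modulator, at 45.0, 108, 40.2, 71.0 and 102 CPM against 6.71, 0, 0.278, 0 and 0.934 CPM. Nrg1, neuregulin 1, the endocardial ligand of the ErbB receptors on CMs, had 105 UMIs in members and none in the none wells, so it was at least 92.9-fold higher over the group when 3 counts are taken as the floor. Those UMIs came from 5.88% of members and were absent in P28 B, and with Nrg1 at its bound the list median was the same.

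Not every gene of the endocardial list passed. Nfatc1, the transcription factor that marks endocardium and valve endothelium early in development, stood at 14.1, 94.8, 26.8, 187 and 8.97 CPM in members and 14.2, 32.8, 33.4, 89.0 and 67.2 CPM in none wells, which overlapped, with a log2 difference of 0.03 ± 0.82 and an adjusted p of 0.997. Emcn, endomucin (1.27 ± 0.39, adjusted p = 0.192), Adgrg6 (5.21 ± 1.31, 0.0795), Foxc1 (3.23 ± 1.01, 0.197) and Edn1, endothelin 1 (3.95 ± 1.11, 0.136), had positive log2 differences that missed the threshold. Hapln1 and Bmp6 had too few UMIs to test, with 0 and 7 in members. The label endocardial therefore rests on 6 of 11 tested genes outside the gate. Nfatc1 is 1 of the 11, and its log2 difference of 0.03 gives the label no support. The direction of the 11 genes, the 6 that passed among them, was partly set by the filter on low counts. Nrg1 passed that filter through members alone, and Tmem108, Smoc1 and Cdh11 were near the floor in none wells.

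**Figure D2:**
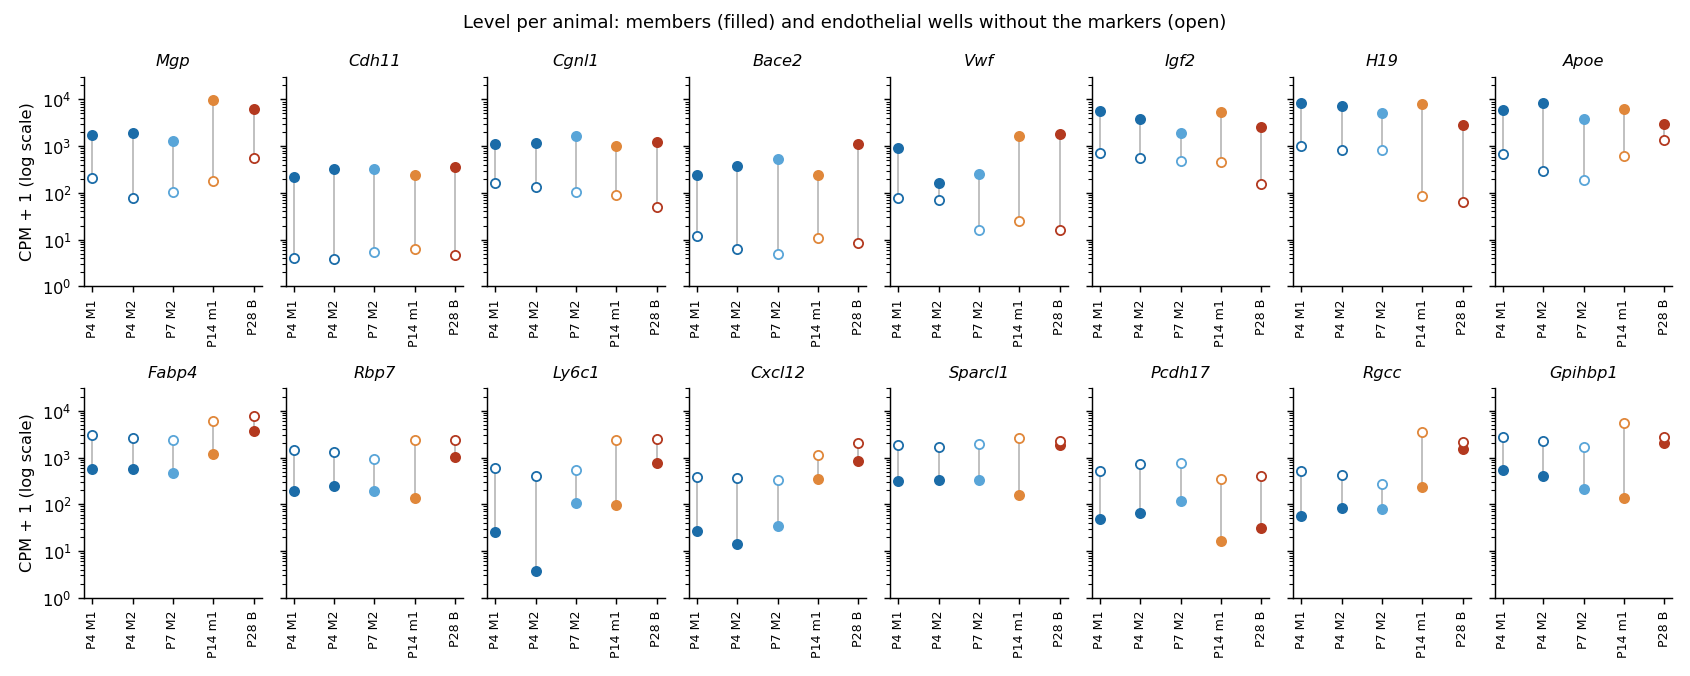
Level of 16 genes (y axis, CPM with 1 added, log scale) in members (filled) and none wells (open) of each of the 5 animals on the x axis, coloured by age, with a grey line joining the pair. The upper 8 genes were higher in members in each animal (Mgp, 6277 CPM against 565 CPM in P28 B), and the lower 8 were lower in each, with the narrowest gaps in P28 B for Sparcl1, Rgcc and Gpihbp1.

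Capillary genes were the main group that was lower in members. Of 18 in the list 17 were tested, with a median log2 difference of -2.60, and 8 passed as lower: Fabp4, Rbp7, Rgcc, Gpihbp1, Btnl9, Cd36, Aplnr and Tcf15. Fabp4, the fatty acid carrier of capillary endothelium, stood at 570.2, 564, 462, 1204 and 3681 CPM in members and 3015, 2577, 2387, 6096 and 7609.6 CPM in none wells (log2 difference -2.08 ± 0.23, adjusted p = 8.26e-05). It was lower in members within every heart, but the P28 B members exceeded the none wells of the 3 pups. Gpihbp1, which carries lipoprotein lipase to the capillary lumen, was at 550.4, 405, 208, 135 and 2013 CPM against 2773, 2291, 1654, 5559.6 and 2767 CPM (log2 difference -2.67 ± 0.47, adjusted p = 0.00747), and the 2 groups overlapped through P28 B. Without P7 M2 the call for Gpihbp1 was lost, and among P14 and P28 hearts alone no gene passed as lower. Fabp5 was the exception in the list and rose in members, at 439, 518, 225, 542 and 757 CPM against 182, 175, 120.1, 202 and 117 CPM (log2 difference 1.56 ± 0.36, adjusted p = 0.0478).

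Outside the capillary list, Pcdh17, a protocadherin, fell by 3.53 on the log2 scale, from 511, 709.6, 763, 343 and 410.0 CPM in none wells to 46.5, 65.2, 114, 15.0 and 29.9 CPM in members, with no overlap. Of the capillary list above, Rbp7, a retinol-binding protein, fell by 2.60 and Rgcc, a cell-cycle regulator, by 2.37. Depp1 fell by 4.22 and Mgll, a monoglyceride lipase, by 2.16. Dach1, a transcription factor of coronary vessels, fell by 5.11, from 66.3, 148, 75.9, 241 and 128 CPM to 2.82, 8.36, 0, 0 and 5.98 CPM, with 19 UMIs left in all members of the tested hearts. Ly6c1 and Ly6c2, surface antigens of microvascular endothelium, fell by 3.95 and 4.68. They are near-identical neighbours whose reads the counting may have shared, so their separate values are uncertain.

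In the arterial list, Cxcl12, a chemokine of arterial and capillary endothelium, fell by 2.93 and Sox17, an arterial transcription factor, by 4.53 (adjusted p = 0.00345 and 0.0252), while Gja4, the gap junction gene connexin 37, rose by 2.69 ± 0.58 (adjusted p = 0.0287). That was 3 of 11 tested genes. Gja4 stood at 344, 165, 271, 82.3 and 32.9 CPM in members and 49.9, 61.0, 50.3, 3.63 and 4.67 CPM in none wells, so it was higher within each heart and overlapped between hearts. None of 5 venous genes passed, although all 5 were positive (median 1.30). The sum of the venous list was higher in members of each heart. It was 690, 572, 490, 1119 and 718 CPM in members and 231, 262, 203, 139 and 335 CPM in none wells. Among 20 transcription factors tested, Sox17 and Tcf15 passed, both lower, and the GATA genes Gata4 (2.06 ± 1.28) and Gata6 (2.52 ± 0.65) did not.

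Few genes of signalling pathways passed. In the BMP and TGF-beta list 2 of 13 passed: Id2, a BMP-induced inhibitor of basic helix-loop-helix factors, was higher by 3.11 ± 0.55 (adjusted p = 0.00719), and Eng, the TGF-beta co-receptor endoglin, by 1.39 ± 0.32 (adjusted p = 0.0478). Id2 reached 222, 351, 349, 168 and 135 CPM in members against 14.2, 39.3, 36.1, 10.9 and 61.6 CPM in none wells, without overlap. Of 12 growth ligands tested Igf2 and Nrg1 passed. In the basement membrane list 3 of 14 fell, Sparcl1 by 2.38, the collagen IV chain Col4a1 by 1.16 and Col15a1, a collagen of capillary basement membranes, by 3.10, where the call for Sparcl1 was lost without P7 M2. No gene passed in the Notch (12 tested), flow response (7), natriuretic peptide (8), caveolae (7) or cell cycle (14) lists by edgeR. Their medians were -0.64, -0.27, 0.10, -0.50 and -1.36 beside -0.43 for all genes.

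Genes of other cell types were present in members and were measured beside these results. Only 50 of 155 members, but 503 of 1134 none wells, had an E sum at least 5 times the F and M sums together. By age that was 40 of 77 members at P4, 4 of 22 at P7, 4 of 17 at P14 and 2 of 39 at P28. The summed level of the F genes was 835, 1096, 1817, 1988 and 2363 CPM in members. In none wells it was 923, 695, 1157, 558 and 1270 CPM, so it was higher in members of every heart but P4 M1. Of 9 further fibroblast genes Mfap5 (2.08 ± 0.45) and Fn1, fibronectin (2.12 ± 0.49), were higher in members (adjusted p = 0.0303 and 0.0478), and the list median was -0.16. In P28 B Fn1 was not higher in members, at 188 CPM against 222 CPM. The summed level of all 9 was higher in members of each tested heart. It was 1712, 2418, 1226, 1688 and 1955 CPM in members and 738, 625, 1053, 284 and 1666 CPM in none wells. Mgp stood at 1370.3 CPM and Mfap5 at 1538 CPM in F-largest wells of the same hearts, and Cdh11 at 36.2 CPM. With mixed wells left out, only the 2 P4 hearts had enough wells, and 47 genes passed, 32 of them among the 108 in the same direction. With wells under 2 times F plus M left out and a minimum of 5 wells, an alternative chosen after seeing the data, 138 genes passed, 65 of them among the 108.

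Of the other foreign lists, no mural (8), macrophage (6) or erythroid (5) gene passed, the lymphocyte list had no gene with enough UMIs, and in the CM list Ttn fell by 1.18 (adjusted p = 0.0193). The summed CM genes, which the rule did not compare, were 1867 to 15731 CPM in members and 1282 to 27052 CPM in none wells, and in members they exceeded the E sum (3845 to 4746 CPM) in 4 of the 5 hearts, all but P28 B. No gene of the dissociation response list (13 tested), immediate early and heat shock genes, passed. In the lymphatic list none of 6 passed. Lyve1 (3.35 ± 1.34, adjusted p = 0.345) stood at 29.6, 286, 13.4, 1111 and 98.7 CPM in members, whereas Prox1, which defines lymphatic endothelium, was at 12.7, 8.36, 0, 0 and 0 CPM there, with 0 UMIs in 3 of the 5 hearts. The part of foreign RNA in these differences was not tested beyond these values.

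Levels also differed with the number of markers in a well, below the gate as well as above it (plotted as level against number of markers). Pooled over wells, Mgp was at 174 CPM with 0 markers, 222 with 1, 818 with 2, 2111 with 3, 3286 with 4 and 3991 with 5. Bace2 went from 8.54 CPM with 0 markers to 429 with 3, 280 with 4 and 886 with 5. The order was not even above the gate in other genes, with H19 at 8035 CPM with 4 markers and 6002 with 5, Cgnl1 at 1179 with 3 and 1051 with 4, and Rbp7 at 67.7 with 4 and 250.2 with 5. Gpihbp1 went from 2738 CPM with 0 markers to 2093 with 2, 793 with 3 and 53.0 with 5, and Fabp4 from 3565 to 580. The wells with 1 and 2 markers were as deep as members (medians of 14842 and 15658 UMIs). With 1 marker Cdh11 was at 15.6 CPM and Bace2 at 18.9 CPM, close to the none wells (11.0 and 8.54 CPM). With 2 markers genes differed: Cdh11 (118 CPM) was nearer its level with 3 (161 CPM). Fabp4 (2941 CPM) and Gpihbp1 with 2 markers stayed nearer the none wells. These are pooled wells of unequal hearts and ages, given with no test.

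**Figure D3:**
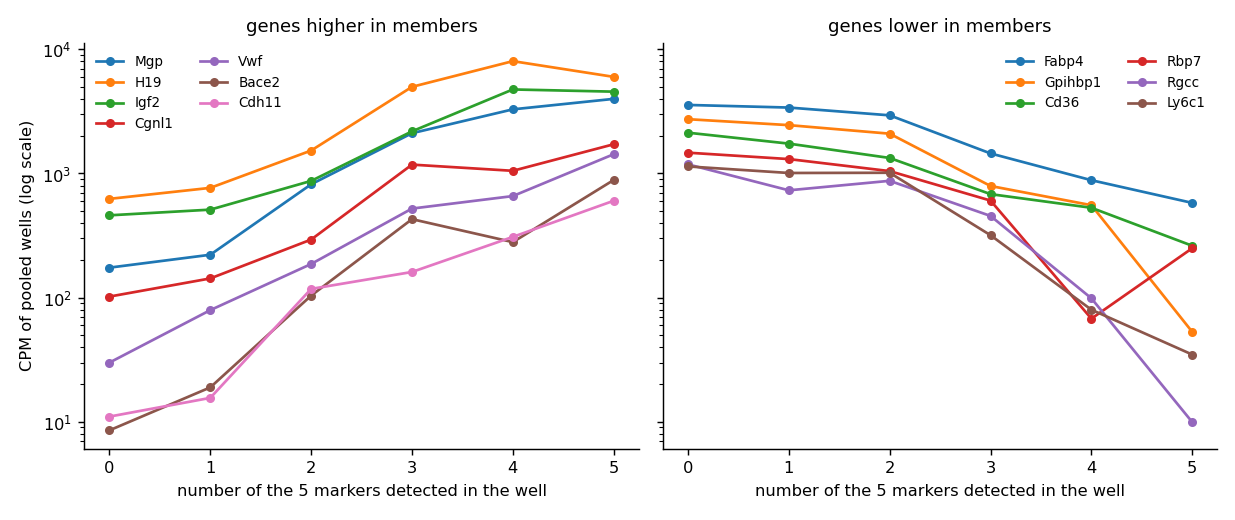
Pooled level (y axis, CPM, log scale) of 7 genes that were higher in members and 6 that were lower, against the number of the 5 markers detected (x axis) in E-largest wells; each point pools 21 to 1134 wells. From 0 to 5 markers Mgp went from 174 to 3991 CPM and Gpihbp1 from 2738 to 53.0 CPM.

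The differences were also measured at 1 fixed depth. After every well was thinned to 5000 UMIs and the gate applied again, leaving 97 members and 942 none wells, Bace2 was detected in 58.8% of members and 2.44% of none wells, Vwf in 46.4% and 6.48% and Igf2 in 95.9% and 45.0%. Before thinning the shares in the tested hearts were 53.8% and 8.70% for Vwf. Gpihbp1 was detected in 33.0% of thinned members and 84.2% of none wells. The share in members was close to that in wells of other classes, 33.9% in F-largest and 33.5% in M-largest, and the same held for Rgcc (19.6%, 18.6% and 25.3%) and Cd36 (49.5%, 45.8% and 50.5%). Rbp7 (17.5%, 20.8% and 22.4%) and Ly6c1 (18.6%, 27.5% and 38.0%) were less frequent in members than in both other classes. At those shares Gpihbp1, Rgcc, Cd36, Rbp7 and Ly6c1 in members cannot be told from background. Fabp4 was detected in 82.5% of thinned members (95% exact binomial interval, 73.4% to 89.4%), above 70.2% of F-largest and 67.6% of M-largest wells and below 97.0% of none wells. Thinning left out 24 members and 364 none wells under 5000 UMIs.

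The knockdown hearts gave 93 members and 454 none wells by the same gate, from a median of 57690 and 24566 UMIs per well. Members numbered 22 in shNT 1, 31 in shNT 2, 34 in shJun 2 and 6 in shJun 1, and the 3 hearts with at least 10 were tested together, with no comparison of hairpins. By edgeR 1 of 11649 genes passed (0.00858%), 831 had an unadjusted p under 0.05, and DESeq2 called 375. Without shNT 2, shNT 1 or shJun 2 the number was 2, 3 and 19. The 1 gene was Vwf, at 1309.8, 2081 and 2200.1 CPM in members and 44.4, 31.3 and 95.3 CPM in none wells (shNT 1, shNT 2 and shJun 2), a log2 difference of 5.15 ± 0.52 (adjusted p = 0.0168). It was higher in members of each heart, with no overlap.

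The genes of the wild-type hearts were then read in these hearts, which had no part in calling them. All 66 higher genes had a positive log2 difference there, beside 43.6% of all genes, with a median of 2.88, and 48 of the 66 (72.7%) had an unadjusted p under 0.05 in that direction, beside 2.93% of all genes. The same gate chose these wells, and a gene low in none wells could pass the filter through members alone. These counts were therefore partly set in advance, and the shares of all genes do not allow for that. Mgp stood at 2840.0, 5361 and 3188 CPM against 645, 493 and 385 CPM (log2 difference 2.88 ± 0.39) and Igf2 at 2207, 1183 and 1312 CPM against 147, 147 and 103 CPM (3.53 ± 0.46). In these 2 genes members and none wells did not overlap, yet neither passed the adjustment by edgeR. All 12 endocardial genes that passed the same filter on low counts were positive, with a median of 4.22. In the lymphatic list none of 8 passed, but its summed level was 120, 836 and 3053 CPM in members against 198, 1110 and 188 CPM in none wells. In shJun 2 members Prox1 was at 474 CPM, and over the 3 hearts 1 well gave 95.7% of the Prox1 UMIs of members and 76.1% of those of Ccl21a, the lymphatic chemokine. The arterial sum was 532, 416 and 1817 CPM in members against 1146, 1041 and 653 CPM in none wells, higher in members in shJun 2 alone. The venous sum was 1339, 830 and 806 CPM in members against 614, 310 and 251 CPM, higher in members of each heart. The part of these markers in the differences was not tested. Nfatc1 was again without a difference past the threshold (1.39 ± 1.12).

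Of the 42 lower genes, 31 (73.8%) were negative in the knockdown hearts, beside 56.4% of all genes, and 4 (9.52%) had an unadjusted p under 0.05 in that direction, beside 4.21% of all genes. Their median was -0.56, beside -0.23 for all genes and -3.14 in the wild-type hearts. Fabp4 was at 1553, 4218 and 3245 CPM in members and 3427, 4118 and 2634 CPM in none wells (-0.26 ± 0.35), and Gpihbp1 at 426, 2269 and 3978 against 1583, 1806 and 1146 CPM (0.11 ± 0.63). In shNT 1 both were lower in members, and in shJun 2 both were higher. The 17 capillary genes had a median of -0.68. The difference between wild-type and knockdown hearts was not tested, and they differ in age, depth and treatment.

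**Figure D4:**
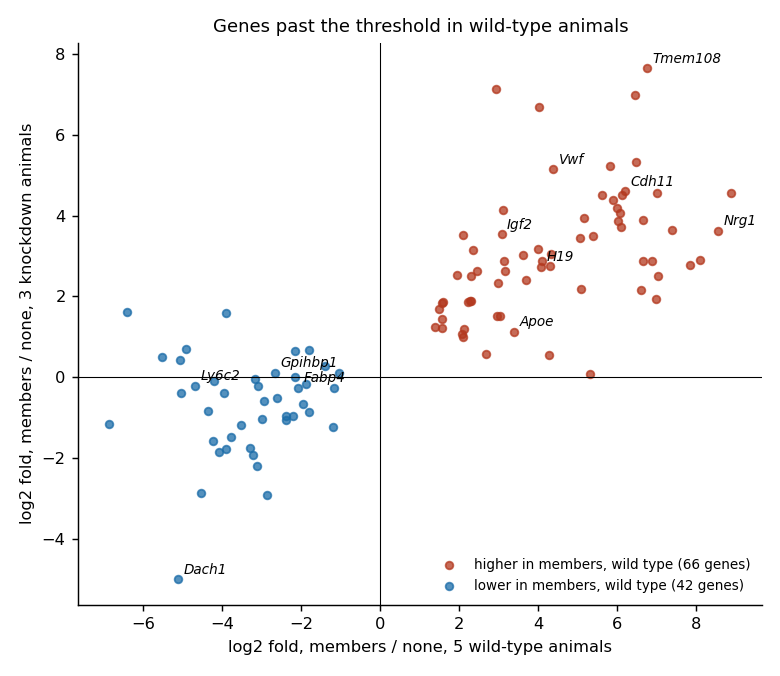
Log2 difference between members and none wells in 3 knockdown hearts (y axis) against that in 5 wild-type hearts (x axis) for the 108 genes past the threshold in wild-type hearts, red higher and blue lower. All 66 higher genes lie above 0 on the y axis, and 31 of the 42 lower genes lie below it.

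With age, 253 of 8361 genes (3.03%) differed within members between the older hearts (P14 and P28) and the pups (P4 and P7), 105 higher (1.26%) and 148 lower (1.77%). This test had 5 animals and 1 residual degree of freedom, from the 2 P4 hearts, and only 26 genes passed (22 higher, 4 lower) when the 9 animals with at least 5 members were used. Without P28 B 124 genes passed. Globin genes led the higher ones, with Hba-a1 at 465, 139, 4399, 57316 and 11952 CPM and a log2 difference of 4.51 ± 0.36 (adjusted p = 5.92e-32). They went with age in none wells too, where Hba-a1 was at 291, 525, 919, 124087 and 18213 CPM, and the globin copies share near-identical reads. Hbb-bt, Hbb-bs and Hba-a2 were the other 3. Zbtb16, a zinc-finger transcription factor, was at 0, 0.54, 0, 272 and 337 CPM (9.90 ± 1.51), and 60.8% of its UMIs came from 1 well. Brms1l passed too, but 1 well gave 76.2% of its UMIs.

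Of the genes described above as higher in members, Mgp and Vwf also rose with age. Mgp passed in the 5 animals (log2 difference 2.38 ± 0.37, adjusted p = 1.13e-07) and was one of the 26 in the 9. Over all 11 animals, as plain CPM, it ran from 801 to 2038 in members of the 4 pups and from 2546 to 12093 in members of the 7 older hearts, with no overlap. Vwf (log2 difference 2.28 ± 0.46, adjusted p = 0.000203) was at 170 to 878 CPM in the pups and at 865 to 5166 CPM in 6 older hearts, and had no UMI in the 1 member of P14 m2. It was also one of the 26, as was Lyve1. These genes were looked up by name after the values were seen. In the flow response list 3 of 7 passed and rose, Thbd, Slc9a3r2 and Klf4. The dissociation response list moved beside it, with 10 of 11 genes positive, a median of 2.11 and 2 that passed, Zfp36 and Dusp1, and digestion differed between these ages. In the capillary list 3 of 15 rose, Rgcc, Cd36 and Fabp4, of which Rgcc and Cd36 were at background shares in thinned members. The capillary sum was also higher in older none wells, at 11214, 10789, 8557, 18044 and 23138 CPM in the order of the hearts.

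Of the named genes that fell within members, those of lowest p were Sln, Hist1h2ap, Tnni1 and Ptn. Sln, a regulator of the calcium pump in atrial CMs, was at 801, 245, 69.1, 0 and 0 CPM. Tnni1, the fetal troponin I of CMs, was at 349, 279.7, 183, 0 and 0 CPM. The replication histone Hist1h2ap was at 287, 145, 525, 0 and 3.06 CPM and Ptn, the growth factor pleiotrophin, at 117, 47.0, 626, 0 and 0 CPM. The older hearts had 0 UMIs or close to it in each, and genes were named for age only where pups and older hearts did not overlap. Sln and Tnni1 fell likewise in none wells, where Tnni1 was at 615, 939, 242, 5.45 and 13.1 CPM, and in F-largest wells Sln stood at 1292 CPM. In the atrial CM list (Nppa, Myl7, Sln and Myl4) 3 of 4 fell within members, Sln, Myl7 and Myl4. Its sum was 1892, 1505, 177, 8.72 and 57.8 CPM in members and 2770, 2276, 101, 0.603 and 9.24 CPM in none wells. How much atrial tissue each preparation held was not tested. In the cell cycle list 4 of 11 fell, Top2a, Cenpf, Mki67 and Ccnb2, and the sum of the list was lower in older none wells too, at 1761, 1868, 2110, 118 and 311 CPM. Top2a was at 61.9, 42.7, 739.6, 0 and 0 CPM, highest in P7 M2, and 1 well gave 59.3% of its UMIs. Top2a lost the call without P7 M2 (adjusted p = 0.117), and Top2a and Cenpf lost it in the 9-animal test (adjusted p = 0.179 and 0.716).

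1 gene of 11177 (0.00895%) changed with age differently in members and in none wells, and that was H19 (512 genes had an unadjusted p under 0.05, and DESeq2 called 40). H19 still passed when any 1 animal was left out, and the number of genes was then 1 without P7 M2, 8 without P4 M2, 9 without P4 M1 or P28 B and 36 without P14 m1. In none wells H19 dropped from 842 to 1119 plain CPM in the 4 pups to 10.3 to 94.6 CPM in the 7 older hearts, without overlap. In thinned wells, all ages together, H19 was detected in 46.0% of none wells and 94.8% of members. It was detected in 46.5% of F-largest and 19.2% of M-largest wells, so the share in none wells was close to that in F-largest wells. The part of background RNA in the H19 of none wells, and in its drop with age, was not tested. In members it was 5437 to 8142 CPM in the pups and 898 to 6269 CPM in the older hearts, and the ages overlapped. The log2 age change of H19 was less negative in members than in none wells, by a difference of 3.14 ± 0.44 (adjusted p = 0.00108) in 5 animals. In the 9 animals with 5 or more wells that difference was 2.62, with an adjusted p of 0.235. For its neighbour Igf2 the same difference was 1.28 ± 0.47 (adjusted p = 0.92). In the knockdown hearts H19 was at 2439, 729.6 and 684 CPM in members and 171, 57.3 and 537 CPM in none wells, and in shJun 2 the 2 were close.

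The share of members among E-largest wells was compared between the pups (P4 with P7) and the older hearts, and that difference was within the spread between hearts (plotted by animal). At a fixed 5000 UMIs per well it was 14.2% and 17.3% in the 2 P4 hearts, 0.99% and 3.76% in the P7 hearts, 1.05% and 6.36% in the P14 hearts, and 3.85% to 7.34% in the 5 P28 hearts. The P4 hearts were above all others, and the P7 hearts were among the lowest, so the pups join the highest shares with some of the lowest. P4 alone was not tested against the others. The mean was 5.38% ± 2.27 (SD, n = 7) in older hearts and 9.07% ± 7.91 (SD, n = 4) in pups, a difference of -3.69 percentage points (exact permutation test, two-sided, p = 0.255, where the smallest possible p is 0.00303). Without P4 M2 the difference was -0.936, and it was 0.206 when 4 markers were asked for (p = 0.903 by the same exact test). Without thinning the P4 wells held 17.1% members, P7 3.18%, P14 6.20% and P28 7.34%. These shares may depend on how each heart was cut, digested and centrifuged, and that was not tested. Among the hearts with summed wells, atrial CM RNA was highest in the P4 hearts, and its bearing on the shares was not tested.

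**Figure D5:**
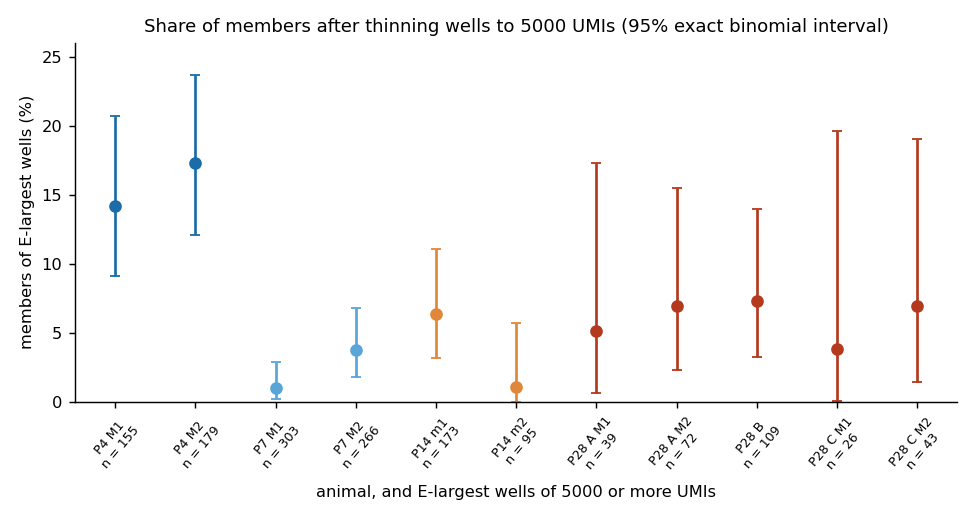
Share of members among E-largest wells (y axis, percent) for each of 11 animals (x axis, with the number of E-largest wells) after thinning to 5000 UMIs; points are shares and lines 95% exact binomial intervals. The P4 hearts sit at 14.2% and 17.3%, and the other 9 hearts at 7.34% or less.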

How the data were processed

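Single-cell RNA-seq of mouse hearts on 18 ICELL8 chips was read from their tables of counts and of wells. Per the study's methods and the submitters' processing notes, the authors assigned reads to wells by barcode, aligned them to mm10 with STAR 2.5.2b, assigned them to genes with featureCounts (Subread 1.4.6-p1) and collapsed duplicates by UMI. The deposited values are raw counts of UMIs per gene and well, with no normalization, and the authors' reports hold counts per well. The matrix sum equalled the reported total in all 23656 wells. Gene names and positions came from the GENCODE annotation of the same build, for 34891 of 35843 Ensembl genes.

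Wells were chosen as the report describes, and no doublet caller was run, because wells were imaged before sequencing. Animals were read from the types and headers of the well reports. Raw UMIs were summed per animal over members and over none wells with at least 10 of each. The 22 genes of the rule, 35 mitochondrial genes and 100 spike-in and reporter columns were left out. Sums were tested with edgeR 4.0.16 (TMM, filterByExpr, quasi-likelihood test, Benjamini-Hochberg threshold 0.05), with the animal as a block because members and none wells of 1 heart share it. The SE of a log2 difference was taken from the F statistic. DESeq2 1.42.0, no filter, other minimum numbers of wells, markers, genes and UMIs, and leaving out each animal were the alternatives. The share by age was tested by exact permutation in scipy 1.17.1. Scripts were tested on simulated data. Named genes were, per direction, the 12 of lowest p (6 for age) with 1 sign in every animal, plus fixed lists. 1 gene that the rule names is counted in the totals and not reported here. Members, lists and tests were chosen with earlier results of these data known. Nothing in the labels says whether animals were littermates, so p-values measure only the spread between these animals.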

Additional observations from a re-analysis of the deposited data

Results flagged for a closer look

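In 2 of 25 outlier tests, 1 animal stood apart from the other 4, where chance flags about 1 in 20 groups. For Fabp4 the log2 ratio of members to none wells, with 1 CPM added, was -1.05 in P28 B and -2.40 to -2.19 in the other 4 animals. For Enpp6 it was 7.24 in P4 M1, where none wells had 0 UMIs, and 5.33 to 5.87 in the others. H19 differed between the ages in its contrast of members with none wells, by 3.14 on the log2 scale in the test of the difference itself. The 3 P28 chips loaded with CMs, which no comparison used, held 15 wells that passed the same gate, of 270 E-largest wells.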

How the results depend on the processing

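None of the 38 named gene results changed sign under any alternative. Of 528 values for the 24 genes named between members and none wells, 455 kept their side of the threshold and 73 lost it, most often with 4 markers or with P14 and P28 hearts only. Igf2 and H19 passed in all 22 alternatives. Between members and none wells the number of genes past the threshold was 108, and it was 467 with DESeq2, 180 with no filter, 59 without the animal block, 258 with at least 5 and 32 with at least 20 wells per sum, 66 with at least 2 and 8 with at least 4 markers, 221 with wells thinned to 5000 UMIs, 296 with at most 5000 UMIs kept of any well, 47 without mixed wells, 4 in P14 and P28 hearts, 51 to 108 without each animal and, chosen after seeing the data, 206 with all 12 wild-type chips. H19, Vwf and Igf2 were among the 4. The medians of the capillary list with 2 markers (-1.23) and the endocardial list after thinning (3.42) moved by more than the spread between animals. For age within members the number was 253, and 159 with DESeq2, 134 with no filter, 37 per chip, 26 with at least 5 wells, 48 with 12 chips (chosen after seeing the data) and 124 to 279 without each of 3 animals. That test could not be fitted without P4 M1, without P4 M2, without mixed wells or with at least 20 wells, since too few sums were left. For age in members against none wells 1 gene passed, and 40 with DESeq2, 10 with no filter, 3 after thinning, 2 with at least 5 wells (chosen after seeing the data) and 1 to 36 without each animal. In the knockdown hearts 1 passed, and 375 with DESeq2, 42 with no filter, 95 after thinning, 7 with at least 5 wells and 2 to 19 without each animal. The cause of these changes was not tested. The difference in share by age, -3.69 percentage points, reversed to 0.206 with at least 4 markers and ran from -6.38 to -0.936 without each animal. No paired analysis was possible because the replicate numbers in the labels name chips, several of which share animals, and the tested sums carry an animal and no such number. The animal block pairs members with none wells. Members of 6 animals were under 10 wells each, and 1 well gave up to 30.0% of the member UMIs of a tested animal.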
